A study of Mus musculus with 30 samples.

Results

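The guanylate-binding proteins (Gbp genes) are a family of 10 genes examined here in J774 cells, a mouse macrophage-like line, before and after interferon-gamma (IFNG). The members are the rows of the table of all libraries whose Ensembl identifier maps to Gbp2, Gbp2b, Gbp3, Gbp4, Gbp5, Gbp6, Gbp7, Gbp8, Gbp9 or Gbp11. All 10 were found among the 54146 genes listed. A further 2 rows carry a Gbp name, Gbp10 and the pseudogene Gbp2-ps, and are given only where a member's value touches them. RNA-seq was done on 5 clones, with 3 libraries for each clone either untreated (UT) or given IFNG at 100 ng/mL over 4 h (30 libraries of polyadenylated RNA). In clones KO1 and KO2 both copies of B2_Mm2.Dicer1, a B2_Mm2 retrotransposon in the first intron of Dicer1, were removed by CRISPR. WT1, WT2 and WT3 are single-cell clones that did not go through electroporation, so genotype and the editing procedure cannot be told apart. Each line is a single clone, and nothing in the labels says that the 3 libraries of a group came from separate cultures, so p-values measure the spread between these libraries, which may be technical.

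GBPs are large GTPases of the dynamin superfamily and are among the most strongly interferon-induced proteins of macrophages. They assemble on pathogen-containing vacuoles and on bacteria in the cytosol, where they promote vacuole disruption and inflammasome activation, often together with the smaller immunity-related GTPases (IRGs). Induction by IFNG runs through the gamma-activated site (GAS) and through IRF1, which binds the interferon-stimulated response element (ISRE). Gbp2b, formerly named Gbp1, Gbp2 and Gbp5 end in a motif for lipid modification (prenylation), which anchors them to membranes.

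The members lie in 2 clusters (mm10 coordinates from the deposited table). The chromosome 3 cluster holds Gbp5 (142493978 to 142522344), Gbp7 (142530342 to 142550149), Gbp3 (142560026 to 142573209), Gbp2b (142594847 to 142619179) and Gbp2 (142620602 to 142638008), all on the plus strand. With Gbp2-ps it spans 175.1 kb. The chromosome 5 cluster spans 332.3 kb on the minus strand and holds Gbp8 (105014150 to 105139540), Gbp9 (105077630 to 105139539), Gbp4 (105115767 to 105139586), Gbp6 (105270702 to 105293698) and Gbp11 (105323042 to 105346472), which GENCODE vM21 annotates as a polymorphic pseudogene.

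Promoter sequence from RefSeq (GRCm38.p6, the build of the deposited table) was at hand for the 5 members of chromosome 3. These windows of 300 bases run from 250 before to 50 after an annotated start. Matches to GAS (TTCNNNGAA) and to an ISRE-like pattern (GAAA, any 2 bases, GAAA) were searched on both strands, and the stretches below show 1 match of each kind found in a gene, since these are the elements through which IFNG is known to act on this family. Capitals mark the match, and an ISRE-like match on the minus strand reads TTTC, any 2 bases, TTTC.
Gbp5 GAS, chr3:142496872-142496900: tggccgttatTTCTCAGAAccaagcacag
Gbp5 ISRE-like, chr3:142496759-142496788: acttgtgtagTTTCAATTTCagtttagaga
Gbp7 GAS, chr3:142530239-142530267: aagcagaagcTTCTCAGAAagtcagcaca
Gbp7 ISRE-like, chr3:142530273-142530302: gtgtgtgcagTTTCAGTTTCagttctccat
Gbp3 ISRE-like, chr3:142559989-142560018: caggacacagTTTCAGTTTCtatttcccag
Gbp2b ISRE-like, chr3:142594700-142594729: gtacttctaaTTTCACTTTCttctttatca
Gbp2 ISRE-like, chr3:142620594-142620623: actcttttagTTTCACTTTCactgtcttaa

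Each of the 5 members had an ISRE-like match, while 3.44% of all 32851 promoter windows of this length held one. The matches began at -165 (Gbp5), -53 (Gbp7), -45 with an overlapping one at -39 (Gbp3), -137 (Gbp2b) and -59 (Gbp2) from the start. For Gbp3 this is the first of 2 annotated starts, and the window of the second held no match of either kind. GAS matches were found in the windows of Gbp5 (-245 and -52) and Gbp7 (-106 and -87), against 8.30% of all windows, and these letters were not in the windows of Gbp3, Gbp2b and Gbp2. The Gbp5 window belongs to a RefSeq start inside the span of the gene in the table. These are matches of letters in the reference sequence and not measured binding.

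Libraries held 15566122 to 37992642 counted fragments, and levels are given as CPM (counts scaled to the library total) with TMM scaling, or as FPKM (CPM per kilobase of exon) where genes are compared with each other. The labelled cell type was matched by all 8 macrophage markers, which summed to 4253 to 6904 CPM in UT and 4468 to 6832 CPM in IFNG libraries. Markers of T cells, B cells, epithelial cells and granulocytes summed to at most 0.668 CPM in any library, those of fibroblasts to at most 2.92 and the 2 dendritic cell markers to at most 5.46. Dicer1, the edited locus, was at 105 ± 7.21, 128 ± 2.95 and 123 ± 2.48 CPM in untreated WT1, WT2 and WT3 (SD, n = 3) against 71.5 ± 1.30 in KO1 and 105 ± 3.65 in KO2, and at 136 to 161 (WT clone means) against 75.0 and 99.6 after IFNG. The Dicer1 difference in untreated cells was past the threshold for KO1 (log2FC -0.74, adjusted p-value 4.1e-05) and not for KO2 (log2FC -0.18, adjusted p-value 0.18).

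To ask how the family responds to IFNG, each clone's 3 IFNG libraries were compared with its 3 UT libraries. All 10 members were higher after IFNG in every clone, and for every member the lowest IFNG library lay above the highest UT library. By edgeR's quasi-likelihood test at an adjusted p-value under 0.05, 10 of 10 members were called higher in WT1, where 11.8% of all tested genes were. The count was also 10 of 10 in WT2 (17.4% of all genes), WT3 (18.6%), KO1 (16.2%), KO2 (13.9%), pooled WT (14.8%) and pooled KO (15.8%). The largest of these adjusted p-values was 2.48e-09. Gbp5, Gbp6 and Gbp11, with at most 14 counts in an untreated library, passed the count filter of these fits only through their IFNG libraries. A call of higher was thus built in for these members and is no separate support, and the medians that follow include them. The median log2FC of the members was 7.73 in pooled WT and 8.14 in pooled KO, whereas the median of all tested genes was -0.0028 and -0.0037. Together the members took 0.00184% to 0.00397% of the counted fragments of an untreated library and 0.265% to 0.370% after IFNG.

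**Figure D1:**
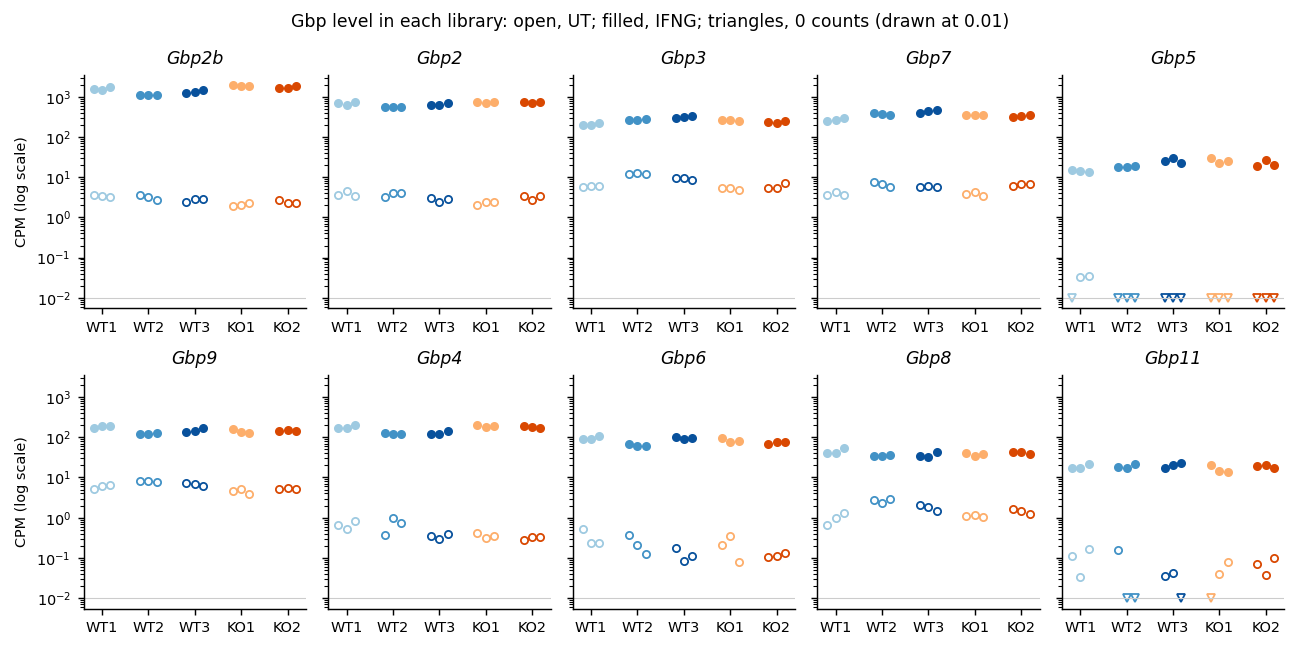
Level of each Gbp member in every library, in CPM on a log axis, by clone. Open circles are untreated libraries, filled circles IFNG libraries and triangles libraries with 0 counts; in each panel all filled points lie above all open points, and Gbp2b reaches 1076 to 1943 CPM.

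Gbp2b, which has been linked to defence against intracellular bacteria, was the highest member after IFNG. Its 3 untreated libraries stood at 3.56, 3.48 and 3.26 CPM in WT1, at 3.70, 3.29 and 2.77 in WT2, and at 2.38, 2.83 and 2.89 in WT3. They were at 1.91, 2.01 and 2.27 in KO1 and at 2.78, 2.34 and 2.25 in KO2. After IFNG the levels were 1578, 1496 and 1709 CPM in WT1, 1111, 1076 and 1087 in WT2, 1276, 1288 and 1493 in WT3, 1943, 1828 and 1889 in KO1 and 1664, 1622 and 1817 in KO2. WT2 was lowest and KO1 highest, and neither range met that of another clone. The log2FC of Gbp2b ran from 8.39 ± 0.058 (SE) in WT2 to 9.86 ± 0.084 in KO1. Gbp2b alone made up 40.5% to 51.0% of all member counts after IFNG, against 7.64% to 15% before.

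Gbp2, which lies next to Gbp2b and is recruited to the Toxoplasma vacuole, was second. It rose from 1.99 to 4.52 CPM over the 15 untreated libraries (median 3.23) to between 557 and 747 (median 703), and its log2FC lay between 7.26 ± 0.057 in WT2 and 8.33 ± 0.079 in KO1. Gbp3 had the highest untreated level of the family per length, 2.37 ± 0.88 FPKM (SD, n = 15 libraries), and came after Gbp2b and Gbp2 following IFNG, at 78.4 ± 11.6 FPKM. Its log2FC of 4.44 ± 0.048 in WT2 to 5.68 ± 0.062 in KO1 was the lowest on chromosome 3 in all 5 clones. Gbp7, which has been tied to assembly of the phagocyte oxidase, went from 3.50 to 7.45 CPM before IFNG to 256 to 465 CPM after it.

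Gbp5, a member known for its part in inflammasome activation, was the one chromosome 3 member with practically no untreated signal. It had 0 counts in 13 of the 15 untreated libraries and 1 count in each of 2 WT1 libraries. After IFNG it reached 14.2 ± 0.98, 18.4 ± 0.33 and 25.8 ± 3.35 CPM in WT1, WT2 and WT3 and 25.7 ± 3.77 and 21.96 ± 3.79 in KO1 and KO2 (SD, n = 3). Against a floor of 3 counts over the 3 untreated libraries of a clone, this is at least 362-fold higher in WT2, 597-fold in WT3, 658-fold in KO1 and 629-fold in KO2. In WT1, with 2 untreated counts, the ratio was 608 (95% exact counting interval 168 to 5027). Intervals and floors cover counting error only.

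On chromosome 5 Gbp9 had the highest mean untreated level per length, followed by Gbp8, Gbp4, Gbp6 and Gbp11. The untreated FPKM ranges of Gbp9 (0.759 to 1.61) and Gbp8 (0.187 to 0.858) overlapped. That of Gbp4 (0.037 to 0.129) lay below Gbp8, although the CPM ranges of Gbp8 and Gbp4 overlapped. Gbp6 and Gbp11 had at most 14 counts in an untreated library. Gbp9 stood at 3.93 to 8.33 CPM before and 122 to 189 CPM after IFNG, with a log2FC of 3.96 ± 0.057 in WT2 to 5.00 ± 0.10 in KO1. Gbp8 went from 0.644 to 2.96 CPM to 32.4 to 53.3 CPM. Its log2FC was 3.72 ± 0.095 in WT2 and 5.49 ± 0.18 in WT1, which had the lowest untreated level of Gbp8 (0.968 ± 0.32 CPM) and the highest after IFNG (44.6 ± 7.55). Gbp4 rose from 0.278 to 0.970 CPM (7 to 25 counts) to 117 to 206 CPM, Gbp6 from 2 to 14 counts to 59.8 to 108 CPM, and Gbp11 from 0 to 5 counts to 13.7 to 22.9 CPM. The counting ratio of Gbp11 ran from 178 (93.3 to 389) in WT1 to 689 (190 to 5700) in WT3, where 2 untreated counts were seen in all. The annotated pseudogene Gbp11 was thus induced in each clone beyond the untreated libraries' counting error.

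**Figure D2:**
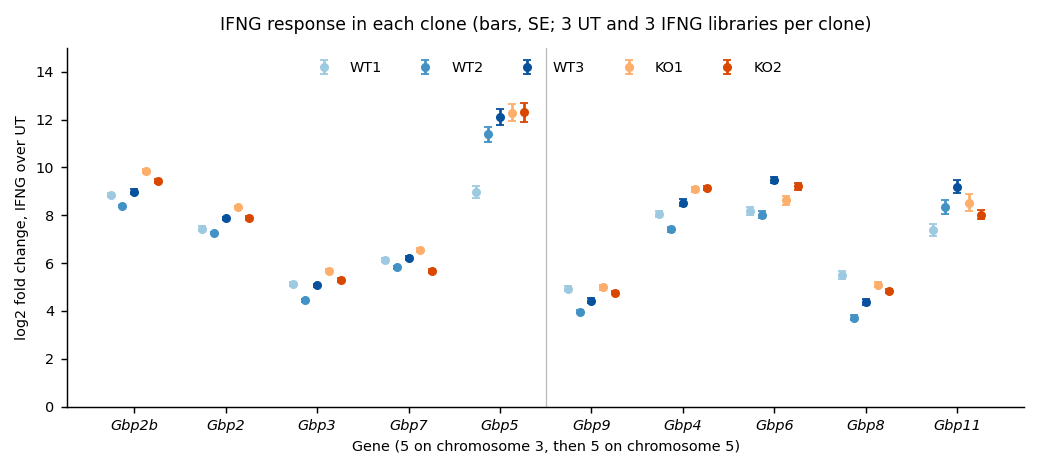
IFNG response of each member in each clone, as log2FC of 3 IFNG over 3 UT libraries with bars of 1 SE. Chromosome 3 members are to the left of the line and chromosome 5 members to the right. Gbp3, Gbp8 and Gbp9 lie lowest, between 3.72 and 5.68, and the values of Gbp5 rest on 0 to 2 untreated counts per clone. Where untreated counts are few, as for Gbp5, Gbp6 and Gbp11, the bars can fall short of counting error.

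Per length, the order after IFNG over all 15 libraries was Gbp2b (540 ± 105 FPKM, SD), Gbp2 (267 ± 27.5), Gbp3 (78.4 ± 11.6), Gbp7 (62.6 ± 10.3), Gbp9 (28.6 ± 4.28), Gbp4 (21.5 ± 4.30), Gbp6 (13.8 ± 2.56), Gbp8 (11.4 ± 1.58), Gbp11 (6.89 ± 0.98) and Gbp5 (3.20 ± 0.78). The FPKM ranges of Gbp3 (59.6 to 101) and Gbp7 (45.6 to 82.9) overlapped, as did those of Gbp9 (23.6 to 36.6) and Gbp4 (15.7 to 27.5), of Gbp4 and Gbp6 (10.0 to 18.2), and of Gbp6 and Gbp8 (9.42 to 15.5). Gbp2b (381 to 688) and Gbp2 (221 to 297) did not overlap each other or any other member. With the longest annotated transcript in place of the exon union, 8 of 10 members kept their place, and Gbp4 (35.4 FPKM) then stood above Gbp9 (29.3). Before IFNG the order of the means was different, with Gbp3 first and Gbp2b, at 0.985 ± 0.20 FPKM, behind Gbp3, Gbp2 and Gbp9. The untreated FPKM ranges of Gbp2 (0.790 to 1.80), Gbp9 (0.759 to 1.61), Gbp2b (0.675 to 1.31) and Gbp7 (0.624 to 1.33) overlapped. The lowest Gbp3 library (1.49) lay within the Gbp2 range. In the KO clones alone Gbp2b (0.801) was also behind Gbp7 (0.921). Chromosome 3 members made up 64.4% to 73.3% of member counts in untreated libraries and 83.7% to 87.9% after IFNG.

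Some of these counts are shared between genes, because a fragment over overlapping exons was counted for each gene. Gbp4, Gbp8 and Gbp9 share an exon stretch of 60 bases at their 5′ ends (105139480 to 105139539), which is 1.74% of the exon bases of Gbp8. What part of the Gbp8 and Gbp9 counts after IFNG came from fragments over that stretch was not tested. Gbp6 shares 1726 exon bases with the gene model Gm43302, and 22.2% of the 150-base pieces of its longest transcript also occur in Gbp10, so its reads and those of Gbp10 may be split or lost at alignment. Gbp2b, Gbp2, Gbp3, Gbp5, Gbp8 and Gbp9 had no 150-base piece in common with another gene. Gbp10 moved much like Gbp6, from 1 to 6 counts to 50.8 to 89.2 CPM.

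The genes around the clusters were measured to see how far the response reached. Of the 10 other genes within 200 kb of the chromosome 3 cluster, 5 passed the count filter and all 5 were higher after IFNG in pooled WT and in pooled KO. One of these, the pseudogene Gm43802 (log2FC 6.05 ± 0.16 in WT), lies wholly within the exons of Gbp7 and shares its fragments. The protein-coding flanking genes changed far less than the members. In WT the log2FC was 1.14 ± 0.10 for Kyat3, a kynurenine aminotransferase, 0.67 ± 0.083 for Gtf2b, a general transcription factor, 0.53 ± 0.064 for Pdlim5 and 0.32 ± 0.048 for Pkn2. Near the chromosome 5 cluster, 3 of 4 tested genes were higher in WT and 4 of 4 in KO. Gm43302, inside the cluster, had a log2FC of 8.47 ± 0.21 in WT. It shares 41.6% of its exon bases with Gbp10 and 40.0% with Gbp6, and so shares their fragments. Zfp951 had a log2FC of 0.81 ± 0.086 and Lrrc8b, a subunit of volume-regulated anion channels, of 0.37 ± 0.062. For Lrrc8c the value was 0.021 ± 0.16 in WT (adjusted p-value 0.96 by edgeR).

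**Figure D3:**
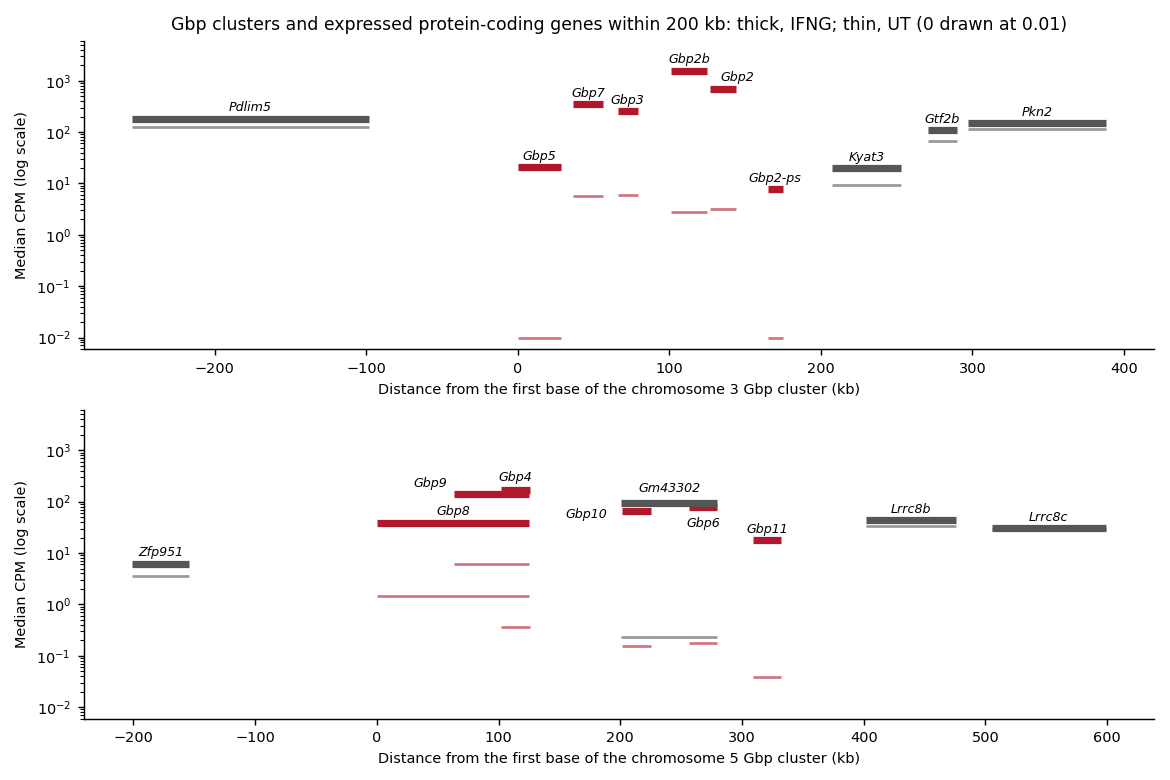
Median CPM on a log axis of the Gbp genes (red) and of protein-coding genes within 200 kb (grey), drawn over their spans by distance in kb from the first base of each cluster. Thick lines are IFNG and thin lines UT libraries (n = 15 each); the members other than Gbp5 move by a log2FC of 4.46 to 8.75 in pooled WT and the flanking genes by 0.021 to 1.14.

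The KO and WT clones were then compared within each treatment. In untreated cells 7 of the 10 members passed the count filter (Gbp5, Gbp6 and Gbp11 did not) and all 7 had a negative log2FC. Of these, 4 were called lower in pooled KO, where 14.4% of all tested genes were lower and 12.2% higher. They were Gbp3 (log2FC -0.72 ± 0.19, adjusted p-value 0.010), Gbp4 (-0.78 ± 0.27, 0.041), Gbp9 (-0.49 ± 0.11, 0.0034) and Gbp2b (-0.47 ± 0.12, 0.0064). DESeq2 called 3 of these 4, with Gbp4 at an adjusted p-value of 0.053. At an unadjusted p-value under 0.05 by edgeR 5 members were lower, as were 2772 of 13886 genes tested. None was higher by edgeR, also at an unadjusted p-value under 0.05 (0 members) and by DESeq2 (0). The members without a call were Gbp2 (-0.36 ± 0.15, adjusted p-value 0.085), Gbp8 (-0.47 ± 0.28, 0.23) and Gbp7 (-0.060 ± 0.19, 0.85). For Gbp3, the KO clones at 5.16 ± 0.28 and 5.95 ± 1.05 CPM stood beside WT1 at 5.89 ± 0.052, while WT2 and WT3 were at 12.4 ± 0.11 and 9.26 ± 0.57. The KO and WT ranges therefore overlapped for Gbp3, and they overlapped for each of the other 6 members as well. Over all genes tested, KO lay wholly below WT for 5.10% and wholly above for 4.10%. The count of 4 fell to 0 without KO1 and to 2 without WT2. Of all genes, 968 of 14441 were lower without KO1 and 1578 of 13810 without WT2, against 1997 of 13886 with all clones.

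After IFNG the direction was mixed, with 5 members at a positive and 5 at a negative log2FC. In pooled KO 3 of 10 were called higher, with 10.9% of all genes higher and 13% lower, and 0 were called lower (0 at an unadjusted p-value under 0.05, 0 by DESeq2). They were Gbp2b (log2FC 0.42 ± 0.098, adjusted p-value 0.0052), Gbp4 (0.38 ± 0.11, 0.021) and Gbp2 (0.21 ± 0.057, 0.013). The log2FC of the others was 0.29 ± 0.16 for Gbp5, 0.033 ± 0.096 for Gbp8, -0.064 ± 0.12 for Gbp7, -0.073 ± 0.11 for Gbp3, -0.088 ± 0.10 for Gbp9, -0.11 ± 0.10 for Gbp11 and -0.13 ± 0.13 for Gbp6, with adjusted p-values from 0.20 to 0.84. Gbp2b stood at 1622 to 1943 CPM (median 1823) in the 6 KO libraries and at 1076 to 1709 (median 1288) in the 9 WT libraries. For Gbp4 the KO range was 172 to 206 CPM and the WT range 117 to 202. Both overlaps came from WT1, whose Gbp4 mean of 181 ± 17.9 CPM was above that of KO2 (179 ± 7.69). For 0 of the 10 members was KO wholly above or wholly below WT, a state found for 3.21% and 4.76% of all genes tested. The count of 3 higher members fell to 0 without KO1 and to 1 without WT2 or without KO2. Of all genes, 551 of 14042, 1059 of 13596 and 1230 of 14043 were then higher, respectively, against 1485 of 13637 with all clones. Without WT1 2 members were called lower, as were 3000 of 13382 genes, so this count does not set the members apart.

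**Figure D4:**
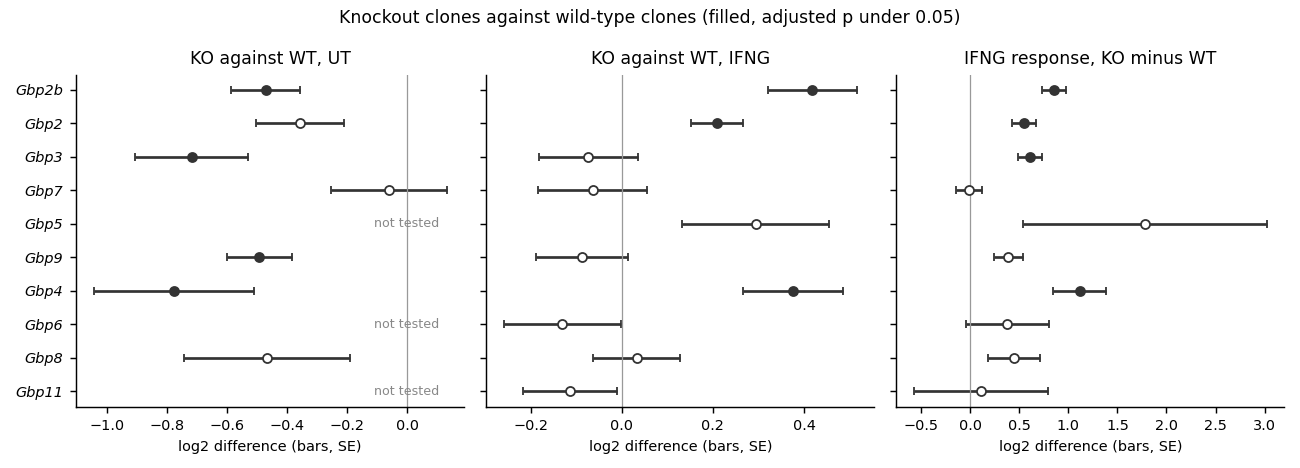
Difference between the KO and WT clones for each member, as log2FC with bars of 1 SE, untreated (left), after IFNG (middle) and in the IFNG response (right, interaction). Filled points have an adjusted p-value under 0.05, which 4, 3 and 4 members reached; the 3 panels have different scales.

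The KO clones were then set against WT one at a time. In untreated KO1, 4 of 7 tested members were lower than in WT (14.6% of all genes), namely Gbp2b, Gbp2, Gbp3 and Gbp9, with a log2FC of -0.61, -0.60, -0.83 and -0.62. None was higher (11.1% of all genes), with 0 also at an unadjusted p-value under 0.05 and by DESeq2. In untreated KO2 no member was called lower (6.70% of all genes) or higher (4.89%) by edgeR or DESeq2. At an unadjusted p-value under 0.05 by edgeR, 4 were lower and 0 higher, against 1945 and 1603 of 14441 genes. After IFNG, 1 member, Gbp2b, was higher in KO1 (log2FC 0.50 ± 0.13, adjusted p-value 0.015, 8.76% of all genes higher), and 0 were lower (12.1%) by edgeR, by DESeq2 or at an unadjusted p-value under 0.05. In IFNG-treated KO2 none was called higher (3.92%) or lower (6.12%) by edgeR or DESeq2. At an unadjusted p-value under 0.05 by edgeR, 2 members, Gbp2b and Gbp2, were higher, as were 1399 of 14042 genes. Each of these KO counts rests on WT clones that differ among themselves.

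Whether the IFNG response itself differs by genotype was tested with an interaction term over all 30 libraries. The response was larger in KO for 4 of 10 members and smaller for none (0 at an unadjusted p-value under 0.05, 0 by DESeq2). Of all tested genes, 0.681% had a higher and 0.341% a lower log2FC response in KO. The difference in log2FC, KO minus WT, was 1.12 ± 0.27 for Gbp4 (adjusted p-value 0.029), 0.85 ± 0.13 for Gbp2b (0.00017), 0.61 ± 0.12 for Gbp3 (0.0059) and 0.55 ± 0.12 for Gbp2 (0.017). The difference was 0.39 ± 0.15 for Gbp9 (adjusted p-value 0.33), 0.44 ± 0.27 for Gbp8 (0.67), 0.38 ± 0.42 for Gbp6 (0.88), 0.11 ± 0.69 for Gbp11 (0.99) and -0.016 ± 0.13 for Gbp7 (0.99). For Gbp5 it was 1.78 ± 1.24 (0.76), a value that rests on 2 untreated counts. By clone, the log2FC of Gbp4 was 8.04, 7.42 and 8.53 in WT1, WT2 and WT3 and 9.09 and 9.13 in KO1 and KO2. For Gbp2b it was 8.85, 8.39 and 8.99 in the WT clones against 9.86 and 9.43, and for Gbp3 5.11, 4.44 and 5.07 against 5.68 and 5.31. For Gbp2 the KO2 response of 7.87 was level with that of WT3. The test counts libraries as replicates. With counts summed per clone, so that the 3 WT and 2 KO clones were the units, 0 members were called in the interaction, in untreated cells or after IFNG. That design called 2 of 16844, 1 of 16189 and 1 of 16197 genes in these comparisons, so the count of 0 does not set the members apart. The log2FC of the interaction was then 0.86 for Gbp2b (adjusted p-value 0.24) and 1.13 for Gbp4 (0.49). Without KO1 the interaction count fell to 0 and without WT2 to 1. Calls fell over all genes too, from 100 of 14682 to 11 of 14661 without KO1 and 24 of 14673 without WT2.

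The 5 clones were also compared with each other without regard to genotype. Untreated levels differed between the 5 clones for 7 of 10 members (70.8% of all genes tested did), and levels after IFNG for 9 of 10 (71.5%), all but Gbp11 (adjusted p-value 0.25). Read against these shares, neither count sets the members apart. The IFNG response differed between the 5 clones for 7 of 10 members, where 3.68% of all genes did. These were Gbp3 (adjusted p-value 6.72e-08), Gbp2b (1.98e-06), Gbp9 (4.76e-05), Gbp2 (0.00014), Gbp8 (0.00019), Gbp7 (0.00044) and Gbp4 (0.020). The 3 members without a call were Gbp5, Gbp6 and Gbp11, which had few untreated counts. With 1 library of each group left out, 5, 5 and 6 members were called and 145 to 466 of all genes. Gbp4 then lost its call each time (adjusted p-value up to 0.49), Gbp8 once (0.063) and Gbp7 once (0.053).

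After IFNG the order of the clones followed different patterns in different members. For Gbp2b and Gbp2 the KO clones had the highest means and WT2 the lowest, and for Gbp4 the mean of WT2 was lowest as well. Gbp3 and Gbp7, which are neighbours, had the order WT3, WT2, KO1, KO2, WT1, from 312 ± 17.5 to 206 ± 15.3 CPM for Gbp3 and from 432 ± 39.0 to 270 ± 23.3 for Gbp7. Gbp9 and Gbp8 were highest in WT1, at 182 ± 9.77 and 44.6 ± 7.55 CPM, and lowest in WT2. For Gbp8 and Gbp11 all neighbours in the order overlapped. Other overlaps were KO2 with WT1 for Gbp2b, and KO2 with KO1, KO1 with WT1 and WT1 with WT3 for Gbp2. For Gbp4 they were KO1 with WT1, WT1 with KO2 and WT3 with WT2. For Gbp3 WT2 met KO1, for Gbp7 KO1 met KO2, and for Gbp9 WT3 met KO2 and KO2 met KO1. Without TMM scaling the order after IFNG was the same for 7 members and changed for Gbp8, Gbp6 and Gbp11.

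Across the 15 IFNG libraries, which share 5 clones, the closest pairs of members in log2(CPM + 0.5) were Gbp7 with Gbp3 (Pearson r 0.98) and Gbp2b with Gbp2 (0.95). Gbp2b and Gbp4, on different chromosomes, had r 0.93. Gbp3 and Gbp4 went opposite ways (r -0.56). Outside the family, the genes most like a member among 12378 genes were, for Gbp2b, Cpeb2 (0.98), Gas7, Sh3kbp1, Rab9 and Inpp5b (0.96 for the last). For Gbp2 they were Inpp5b, Stk38, Ncoa6, Shb and Gas7 (0.96 to 0.93), for Gbp4 Stk38, Hist2h2be, Bcl2l1, Gzf1 and Map3k15 (0.98 to 0.96), and for Gbp3 Gsap, Emp1, Leprot, Srpk2 and Tgfbr2 (0.96 to 0.94). Gbp7 was most like the overlapping Gm43802 (0.97), then Tm9sf2, Acsl4, Rad21 and Ocrl. Gbp6 was most like the overlapping Gm43302 (0.99), then Zfp46, Phc3, Zfp950 and Gm42658. For Gbp9 the list was Gm42549, Bbs10, Pgap1, E330034L11Rik and Zfp369 (0.91 to 0.89), for Gbp8 Foxo4, L3mbtl3, Brd1, Phf1 and Pisd-ps1 (0.90 to 0.83) and for Gbp11 Tlr6, Taz, Zkscan4, 9330151L19Rik and Pfkfb2 (0.84 to 0.74). With 5 clones behind 15 points, many genes reach a high r.

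Lists of genes that work with GBPs were counted in the same fits. Of the 9 genes of IFNG signalling, 7 were higher and 2, the receptor chains Ifngr1 and Ifngr2, lower after IFNG in pooled WT, with a median log2FC of 0.98. Irf1, the transcription factor that acts on ISREs, had the largest change (5.10 ± 0.066) and rose from 16.7 to 26.1 CPM to 698 to 960 CPM. Of the 12 IRG GTPases, 11 were higher and 1, Irgq (-0.19 ± 0.052), lower, with a median log2FC of 7.34. Iigp1, which acts with GBPs on the Toxoplasma vacuole, went from 0 to 12 counts to 652 to 992 CPM. In the same comparison 1980 of all 13423 genes tested were higher and 1860 lower. Of the 10 Atg8 conjugation genes, which GBPs and IRGs need to reach vacuoles, 3 passed the test in WT, all of them higher, Atg16l1 by a log2FC of 0.54 ± 0.045. Of the 6 prenylation genes 1 passed, Fnta, which was lower (-0.17 ± 0.048). Of the 7 inflammasome genes tested 4 were higher, led by Casp4 (2.87 ± 0.063), the receptor for cytosolic lipopolysaccharide, and 2 lower.

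In the genotype interaction 3 of 9 IFNG signalling genes and 3 of 12 IRG GTPases had a higher log2FC response in KO, against 0.681% of all tested genes. For Ifngr2 this was a weaker fall. Its log2FC after IFNG was -0.36, -0.58 and -0.69 in WT1, WT2 and WT3 and -0.14 and -0.33 in KO1 and KO2. The genes with a call included Irf9 (0.35 ± 0.070, adjusted p-value 0.0068) and Ifngr2 (0.30 ± 0.066) of the first list, and Irgm2 (0.80 ± 0.080), Igtp (0.48 ± 0.078) and Irgm1 (0.35 ± 0.086). The median over the list was 0.21 for IFNG signalling and 0.45 for the IRG GTPases, beside 0.49 for the Gbp members and -0.0030 for all genes tested. These list counts also take libraries as replicates. With counts summed per clone, the interaction fit called 2 of 16844 genes in all. Untreated Irf9 (log2FC -0.50 ± 0.10) and Irgm2 (-0.78 ± 0.076) were lower in pooled KO, as were 4 Gbp members. Among the 8 inflammasome genes, 1 had a higher log2FC response in KO, Nlrp3 (0.45 ± 0.072). Nlrp3 fell after IFNG in every clone, and less in KO1 (-0.53) and KO2 (-0.75) than in WT1 (-0.99), WT2 (-1.12) and WT3 (-1.21).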

How the data were processed

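RNA-seq counts of 30 libraries were analysed, 3 for each of 5 clones and 2 treatments. The authors used BBDuk for trimming and HISAT2 2.1.0 for alignment to mm10, kept uniquely aligned fragments, merged technical replicates with SAMtools 1.10 and counted fragments per gene with featureCounts 1.6.2 on the reverse strand. The deposited values are raw counts. The header of the deposited table names Gencode vM18 and options that count a fragment for each gene it overlaps, while the study's methods name RefSeq. Exon union lengths in the deposited table gave FPKM. Depth ran from 15566122 to 37992642 counts, and the SE of each log2FC reflects the spread between libraries as well as depth. Library pairs within a group differed by more than counting noise (chi-square per degree of freedom 1.95 to 19.5).

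Counts were fitted in edgeR 4.0.16 under R 4.3.3 (filterByExpr, TMM, estimateDisp, glmQLFit, glmQLFTest), with Benjamini-Hochberg adjustment over all genes tested and a threshold of 0.05. The SE is the absolute log2FC over the square root of F. For IFNG responses from low untreated counts this value can lie below the counting error alone. For Gbp11 in WT3 it was 0.27, while the exact counting interval ran from a 190-fold to a 5700-fold rise. The SE of such responses is not a full measure of their uncertainty. The functions were tested on simulated data. Pooled fits used genotype or treatment alone, and the interaction fit held clone, treatment and their genotype interaction as terms. DESeq2 1.42.0, RLE scaling, other count filters, 1 fit over all libraries, a clone block, counts summed per clone, and leaving out libraries or clones were alternatives; the interaction on summed counts was chosen after seeing the data. Counting ratios used exact 95% intervals and a floor of 3 counts over a group. Tables and plots were made in Python 3.11.15 with pandas 2.3.3, numpy 2.4.6, matplotlib 3.10.9 and scipy 1.17.1. The members and all lists were chosen with earlier results of these data known. The genes named were all 10 members, the protein-coding genes within 200 kb with at least 1 CPM in some group, the gene of each list with the largest absolute log2FC past the threshold in pooled WT, and the 5 genes with the highest r to each member. Other list genes were named after their values had been seen. The likeness list of Gbp5 and the values of some list genes are not reported here.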

Additional observations from a re-analysis of the deposited data

Results flagged for a closer look

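The IFNG response differed between the KO and WT clones in the interaction test for 4 members, by a log2FC of 0.85 for Gbp2b, 0.55 for Gbp2, 0.61 for Gbp3 and 1.12 for Gbp4 (KO minus WT). With the clones as units none of the 4 passed the threshold, and adjusted p-values were 0.24 to 0.64.

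The response also differed among the 5 clones for 7 members by edgeR's quasi-likelihood F test, with adjusted p-values of 6.72e-08 (Gbp3), 1.98e-06 (Gbp2b), 4.76e-05 (Gbp9), 0.00014 (Gbp2), 0.00019 (Gbp8), 0.00044 (Gbp7) and 0.020 (Gbp4). With 1 library of each group left out, Gbp4 (adjusted p-value up to 0.49), Gbp8 (0.063) and Gbp7 (0.053) lost the call. The range of the 5 clones' log2FC was widest for Gbp8 among these (1.78) and narrowest for Gbp7 (0.87). No test of single outlying libraries was run.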

How the results depend on the processing

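All 10 members were called higher after IFNG in every clone and pool under each alternative that tested them. A filter of at least 10 counts in every library left 6 called members in WT2, WT3, KO1, KO2, pooled WT and pooled KO, because fewer members passed it. With counts summed per clone, 0 members were lower in untreated KO, 0 higher in KO after IFNG and 0 larger in the interaction, the last added after the data had been seen. These fits called 1 of 16189, 1 of 16197 and 2 of 16844 genes in all. In 1 fit over all libraries, 1 member was higher and 3 lower in untreated KO2, 4 were higher in KO1 after IFNG, and 3 were higher and 2 lower in KO2 after IFNG. Of all 14870 genes that fit called 2506 higher and 2379 lower, 3475 higher, and 2857 higher and 2501 lower, respectively. DESeq2 called 2 higher in KO1 after IFNG.

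Leaving out single clones moved the counts of members lower in untreated cells between 0 and 5 (KO), 2 and 6 (KO1) and 0 and 3 (KO2, 3 without WT1). After IFNG those higher ranged from 0 to 3 (KO), 1 to 3 (KO1) and 0 to 4 (KO2, 4 without WT1), and those lower from 0 to 2 (KO), 0 to 1 (KO1) and 0 to 2 (KO2), each highest without WT1. The count in the interaction ranged from 0 without KO1 to 6. All-gene counts, of 13382 to 14700 tested, moved too, each highest without WT1. Untreated, 968 to 3208 genes (KO), 1615 to 3604 (KO1) and 765 to 2794 (KO2) were lower. After IFNG, 551 to 2992 (KO), 915 to 3118 (KO1) and 309 to 2554 (KO2) were higher. Those lower after IFNG numbered 860 to 3000 (KO), 1319 to 3173 (KO1) and 542 to 2440 (KO2). In the interaction 11 (without KO1) to 378 genes had a higher log2FC response in KO.

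Some values changed sign. In 1 fit over all libraries the log2FC in KO1 after IFNG was 0.012 for Gbp3 and 2.76e-05 for Gbp6. For Gbp11 in KO2 after IFNG it was 0.000623 (DESeq2), 0.023 (no filter) and 0.0088 (1 fit), and the interaction of Gbp7 was 0.027 in DESeq2. Without single clones, the untreated log2FC ran from -0.50 to 0.27 for Gbp7 in KO and from -0.59 to 0.10 for Gbp8 in KO2. After IFNG it ran in KO from -0.24 to 0.090 (Gbp7), -0.22 to 0.071 (Gbp3), -0.044 to 0.14 (Gbp8) and -0.21 to 0.061 (Gbp9). In KO1 it ran from -0.19 to 0.14 (Gbp7), -0.15 to 0.14 (Gbp3), -0.11 to 0.075 (Gbp8), -0.22 to 0.055 (Gbp9) and -0.20 to 0.073 (Gbp6). In KO2 it ran from -0.017 to 0.43 (Gbp5), -0.28 to 0.047 (Gbp7), -0.20 to 0.075 (Gbp9) and -0.020 to 0.036 (Gbp11). The interaction ran from -0.38 to 0.47 (Gbp7) and -0.58 to 0.47 (Gbp11). Apart from the filter and the summed counts, the cause of these changes was not tested.

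No paired analysis was possible because the columns carry no replicate number. Low counts limit the untreated values of Gbp5, Gbp6 and Gbp11. Those of Gbp4, and its interaction, also rest on few counts, 7 to 25 per untreated library.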

Other observations

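The pseudogene Gbp2-ps, at the end of the chromosome 3 cluster, had 0 counts in all 15 untreated libraries. After IFNG it had 113 to 552 counts in 14 of 15 libraries and 0 in 1 WT3 library, although Gbp2 stood at 629 CPM in that library and the other 2 WT3 libraries of the group had 132 and 113 counts. Its IFNG levels were 10.4 to 14.98 CPM in KO1 and 9.70 to 15.8 in KO2, against 6.88 to 10.8 in WT1 and 7.32 to 7.79 in WT2.

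Lrrc8c, near the chromosome 5 cluster, was the 1 neighbour called in the genotype interaction (log2FC 0.26 ± 0.062, adjusted p-value 0.023). Its IFNG response was 0.021 ± 0.16 in WT and 0.29 ± 0.075 in KO.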
